A study of Mus musculus with 14 samples.

Results

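Large and small cells, told apart by forward scatter, were compared within tumours of a single-cell study of type 1 conventional dendritic cells (cDC1). Forward scatter is the light a cell throws forward as it passes the laser of a sorter, and it was recorded for 458 of the 555 cells of the series. From those 458 cells, 70 with a CD64 staining of 8 or more on the arcsinh scale were set aside, as were 70 with UMIs (unique molecular identifiers, 1 per captured transcript) in 3 or more of the fibroblast genes Col1a1, Col1a2, Col3a1, Dcn and Sparc, and 13 cells met both criteria. The remaining 331 cells came from 12 plates of 18 to 44 cells each. In each plate the third with the highest forward scatter was called large and the third with the lowest was called small, which gave 106 large and 106 small cells, 6 to 14 of each per plate. The 119 cells between them were called middle. The cells were thus selected on forward scatter, on CD64 staining and on the fibroblast genes, and these values are described below and not tested.

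Each plate held cells of 1 YUMM1.7 melanoma, a transplantable mouse line injected under the skin of 1 female mouse, so the large and small cells of a plate share tumour, sort and library preparation. The plates used were 5 of Irf1_dXCR1 mice, all 6 weeks old, 3 of Ikbkb_dXCR1 mice, 2 of which were 8 weeks and 1 of which was 6 weeks old, and 4 of Irf1_FF mice, all 6 weeks old. The submitters name the genotypes ending in FF as controls. The labels do not say which exons were deleted or which line drove the deletion, beyond the name dXCR1. Ikbkb_dXCR1 plates belong to experiment M2 and all Irf1 plates to experiment M3, and the 1 Ikbkb_FF plate had no sort values, so genotype and experiment cannot be told apart between the Ikbkb and Irf1 plates.

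The cDC1 is the dendritic cell that takes up dead tumour cells and presents their antigens on MHC class I to CD8 T cells, and its defining surface receptor is XCR1. Irf1 encodes a transcription factor induced by interferons, and Ikbkb encodes IKKβ, the kinase that activates canonical NF-κB. Forward scatter grows with the size of a cell, and cells grow before they divide and when immune cells are activated, while side scatter grows with granularity. The label cDC1 was checked on 2 genes that were picked with their levels known. Xcr1 averaged 403 ± 268 CPM in large and 361 ± 373 CPM in small cells, and Clec9a, a receptor for dead cells, averaged 127 ± 124 CPM in large and 135 ± 77.3 CPM in small cells (SD, n = 12 plates). UMIs of Xcr1 were found in 49 of 106 large and 28 of 106 small cells, and UMIs of Clec9a in 33 large and 29 small cells, and neither transcript was found in 50 large and 64 small cells. CPM here are UMIs per 1000000 UMIs of edgeR's effective library size, which is the sum over the 4015 genes tested in a plate and class multiplied by its TMM factor, so the CPM of all genes add up to more than 1000000.

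By the choice of cells, the plate medians of forward scatter lay between 157404 and 193183 units in large cells and between 76347 and 124429 units in small cells. The last large cell of a plate had 137959 to 166680 units over the plates, and the cell just outside had 131822 to 165688 units. The last small cell had 110193 to 131112 units, and the cell just outside had 113156 to 134320 units. Summed over the cells of a class, a plate held 855879 to 2608878 UMIs in large and 583404 to 2046597 UMIs in small cells. No cell name and no cell's set of counts occurred a second time.

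Side scatter and 3 fluorescence channels were higher in large cells. The plate medians of side scatter lay between 12.42 and 13.17 arcsinh units in large cells (median 12.74) and between 11.97 and 12.31 in small cells (median 12.20), so the classes did not overlap over the 12 plates. The mean difference was 0.59 ± 0.23 arcsinh units (SD, n = 12), which at these intensities is a 1.80-fold higher side scatter, and it was above 0 in 12 of 12 plates. The 2-sided exact sign-flip permutation test gave p = 0.000488, the smallest that 12 plates allow, and 0.00244 after adjustment over 15 per-cell measures. Of the large cells, 14 stood at the highest side scatter recorded, 262143 units, against 0 of the small cells. The plate median of large cells reached that limit in Ikbkb_dXCR1 replicate 3 only, so the difference can be understated in that plate.

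CD45, the surface phosphatase of all leukocytes, stained from 9.88 to 11.01 arcsinh units in large cells (median 10.60) and from 9.54 to 10.21 in small cells (median 10.04). It was higher in large cells by 0.60 ± 0.28 units, 1.82-fold, in 12 of 12 plates (exact permutation test, adjusted p = 0.00244). The channel named B_TIL was higher by 0.78 ± 0.22 units, 2.18-fold, also in 12 of 12 plates (exact permutation test, adjusted p = 0.00244), with plate medians of 6.36 to 7.71 in large and 5.73 to 6.67 in small cells. The channel named LIVE was higher by 0.72 ± 0.39 units, 2.06-fold, in 11 of 12 plates (exact permutation test, adjusted p = 0.00366), with 7.06 to 8.03 in large and 6.42 to 7.24 in small cells. Neither name is explained in the labels, and whether the channels were compensated or corrected for autofluorescence is not given in the sources used here.

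XCR1 staining did not pass the threshold. Its plate medians ran from 7.03 to 10.18 arcsinh units in large cells (median 9.21) and from 7.31 to 9.14 in small cells (median 7.88), a difference of 0.78 ± 0.95 that was above 0 in 9 of 12 plates (exact permutation test, adjusted p = 0.0527). CD11c, the integrin that marks dendritic cells, differed by 0.44 ± 0.58 units and was above 0 in 8 of 12 plates (exact permutation test, adjusted p = 0.0659). MHC class II protein averaged 9.11 ± 0.78 units in large and 9.12 ± 0.62 units in small cells, with a difference of -0.003 ± 0.86 (SD, n = 12 plates). XCR1 and CD11c both passed with the classes split at the median, without the cells at the top of the side scatter scale, in the Irf1 plates (set apart after the values were seen), without Ikbkb_dXCR1 replicate 3 and without Irf1_dXCR1 replicate 1, at adjusted p-values of 0.00732 to 0.0464 in the exact permutation test. In every other setting XCR1, CD11c or both stayed short of the threshold. Without the CD64 limit XCR1 had an adjusted p of 0.134 and CD11c 0.0342 (exact permutation tests). Without cells that held mitosis genes (below) these were 0.0483 and 0.225, and without cells that held maturation genes (below) 0.0850 and 0.137 (exact permutation tests). Whether the channels shift together with size was not tested. The lineage channel (LIN) and CD11b had plate medians that reached below 0 units of intensity, near which the arcsinh scale stretches small differences, and their differences were 0.27 ± 2.39 and 0.53 ± 4.95 units (exact permutation tests, adjusted p = 0.865 and 0.804). CD64, which the choice of cells had used, was not tested; its plate medians had a mean of 215 intensity units in large and 66.4 in small cells.

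**Figure D1:**
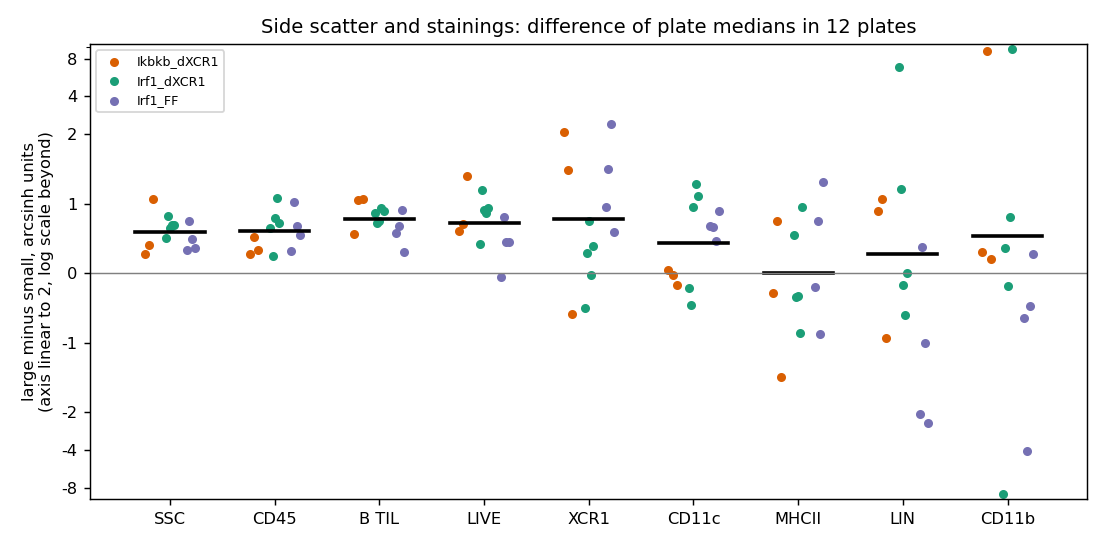
Difference of plate medians (large minus small, arcsinh units; linear to 2 and logarithmic beyond) of side scatter and 8 stainings, 1 point per plate coloured by genotype, with the mean as a bar. All 12 points lie above 0 for side scatter, CD45 and B_TIL and 11 of 12 for LIVE, while MHCII, LIN and CD11b spread over both signs.

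RNA per cell did not pass the threshold over all 12 plates. Large cells had a median of 51163 to 222041 UMIs over the plates and small cells 69838 to 172947 UMIs. On the log2 scale the mean was 17.01 ± 0.59 in large and 16.81 ± 0.46 in small cells, a difference of 0.19 ± 0.73 or 1.14-fold (SD, n = 12; exact permutation test, adjusted p = 0.533), with 9 of 12 plates above 0. Genes per cell averaged 1532 ± 531 in large and 1323 ± 414 in small cells, a difference of 209.6 ± 433.6 (exact permutation test, adjusted p = 0.232). With plate means in place of plate medians the difference in genes was 400.2 and passed (exact permutation test, adjusted p = 0.0345), as it did at 296.3 without Ikbkb_dXCR1 replicate 3 (exact permutation test, adjusted p = 0.0356). After every cell was thinned to 20000 UMIs, which left out 2 large and 3 small cells, the difference in genes was 188.5 ± 263.7 and above 0 in 10 of 12 plates (exact permutation test, adjusted p = 0.0722), and with plate means it was 282.0 (exact permutation test, adjusted p = 0.0345). UMIs per UMI of the spike-in RNA, which every well received in equal amount, differed by 0.24 ± 0.65 on the log2 scale (exact permutation test, adjusted p = 0.318), and by 0.44 with plate means (exact permutation test, adjusted p = 0.0456).

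The 3 Ikbkb_dXCR1 plates and the 9 Irf1 plates lay on opposite sides. In Irf1_dXCR1 plates the median UMIs per cell in large and small cells were 128621 and 81985, 82980 and 71649, 222041 and 115410, 143546 and 93486.5, and 197592 and 109936. In Ikbkb_dXCR1 plates they were 142767 and 172947, 126496 and 143281, and 51163 and 166460. In Irf1_FF plates they were 200869 and 143647, 157807 and 134530, 165294 and 145778, and 106182 and 69838. Large cells had fewer UMIs than small cells in 3 of 3 Ikbkb_dXCR1 plates and more in 9 of 9 Irf1 plates.

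The 9 Irf1 plates were set apart because of that split, so their values are given with no test. Large cells had more UMIs by 0.53 ± 0.29 on the log2 scale, 405.6 ± 241.8 more genes and, at 20000 UMIs per cell, 290.1 ± 192.7 more genes. UMIs per spike-in UMI averaged 4.59 ± 0.38 in large and 4.06 ± 0.27 in small cells on the log2 scale, a difference of 0.53 ± 0.36. It was below 0 in 3 of 3 Ikbkb_dXCR1 plates and above 0 in 8 of 9 Irf1 plates. Ranked within a plate over 18 to 44 cells, forward scatter and UMIs had a Spearman rho of -0.36 to -0.0444 in the Ikbkb_dXCR1 plates and of 0.0926 to 0.483 in the Irf1 plates.

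The difference between large and small cells itself was compared between genotypes. In log2 UMIs it averaged -0.81 ± 0.79 in Ikbkb_dXCR1 plates (n = 3) and 0.36 ± 0.21 in Irf1_FF plates (n = 4), and the change of -1.17 had p = 0.0571 in the exact permutation test, the smallest that 3 against 4 plates allow, and an adjusted p of 0.214. Against all 9 Irf1 plates, a comparison added after the split had been seen and no independent evidence of it, the change was -1.33 in log2 UMIs, -783.9 genes, and -406.2 genes at 20000 UMIs. The plates were grouped by their split in UMIs, which fixed the result of a test in advance, so these changes are given with no test. With each plate left out in turn the change in log2 UMIs stayed below 0, at -1.65 to -0.89. With the classes split at the median it was -1.10. The value nearest 0 came without the Ikbkb_dXCR1 plate with 51163 UMIs in large cells. That plate also held 6 of the 14 large cells at the top of the side scatter scale.

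Between Irf1_dXCR1 (n = 5) and Irf1_FF (n = 4) plates none of the 15 measures passed the exact permutation test after adjustment. The spike-in measure came closest: large cells exceeded small cells by 0.78 ± 0.17 in Irf1_dXCR1 plates and by 0.23 ± 0.29 in Irf1_FF plates on the log2 scale, and the ranges did not overlap (exact permutation test, p = 0.0159, the smallest possible, adjusted p = 0.119). XCR1 staining ran the other way, with 0.18 ± 0.47 arcsinh units in Irf1_dXCR1 and 1.35 ± 0.78 units in Irf1_FF plates (exact permutation test, adjusted p = 0.132). It was above 0 in 3 of 5 Irf1_dXCR1 and in 4 of 4 Irf1_FF plates.

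**Figure D2:**
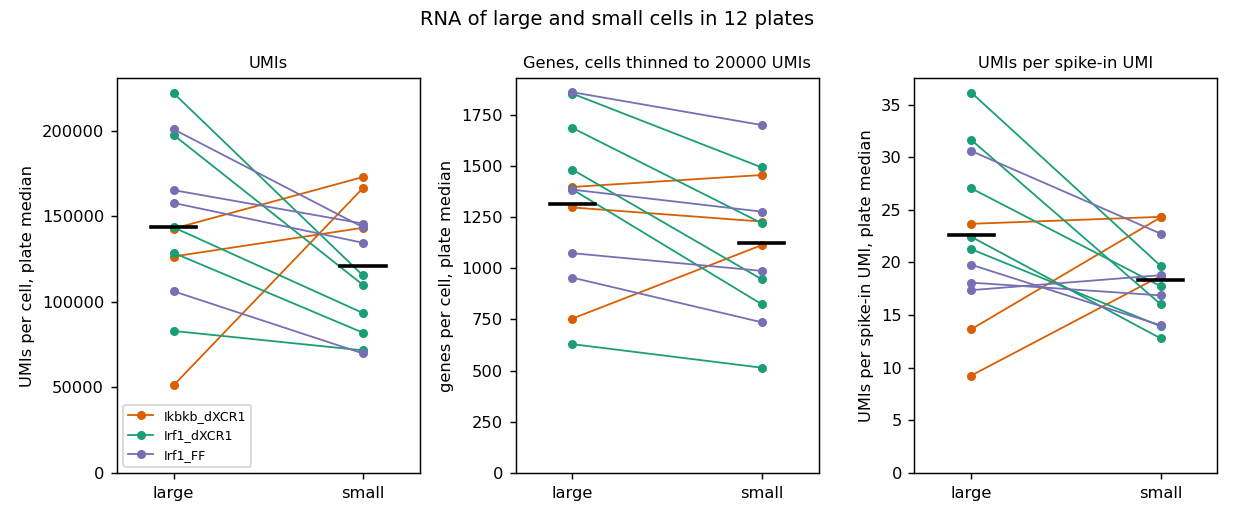
Plate medians of UMIs per cell, of genes per cell after thinning to 20000 UMIs, and of UMIs per spike-in UMI, with large cells left and small cells right, 1 line per plate coloured by genotype, and the mean of 12 plates as a bar. In UMIs, all 3 lines of Ikbkb_dXCR1 are lower at large cells and all 9 lines of the Irf1 plates are higher.

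The share of mitochondrial UMIs averaged 1.33 ± 0.51% in large and 1.27 ± 0.32% in small cells (SD, n = 12 plates; exact permutation test, adjusted p = 0.804). It was lower in large cells in 8 of 12 plates, and the mean difference turned below 0 without Ikbkb_dXCR1 replicate 1, at 2.30% in large and 0.90% in small cells, or without Irf1_FF replicate 2. Spike-in UMIs were 4.85 ± 2.02% of all UMIs in large and 5.38 ± 1.09% in small cells over the 12 plates. By genotype they were 3.62 ± 0.76% in large and 6.00 ± 0.98% in small cells of Irf1_dXCR1 plates, 7.06 ± 2.86% in large and 4.32 ± 0.65% in small cells of Ikbkb_dXCR1 plates, and 4.73 ± 1.10% in large and 5.38 ± 1.02% in small cells of Irf1_FF plates. Under 500 genes were found in 8 large and 15 small cells.

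Cells that held mitosis genes were counted from 8 genes of the G2 phase and mitosis (Mki67, Top2a, Cdk1, Ccnb2, Birc5, Ube2c, Ccna2 and Cdc20). UMIs in 3 or more of them were found in 4 of 106 small, 6 of 119 middle and 16 of 106 large cells. The share was 12.1 ± 17.7 percentage points higher in large cells over the 12 plates, above 0 in 7, below 0 in 1 and equal in 4 plates (2-sided exact permutation test, p = 0.0391, and 0.0781 after adjustment over this and the maturation count, both added after the data were seen). The cells with these genes held more RNA in both classes, with medians of 236642 UMIs in large and 192095 in small cells, against 137403 UMIs in the other large and 108333 in the other small cells. Detection of a gene rises with UMIs, and the part of that in the share was not tested. By the same count over 8 maturation genes (Ccr7, Fscn1, Ccl22, Il12b, Cacnb3, Socs2, Relb and Il4i1), 27 small, 33 middle and 32 large cells were positive, and the plate shares differed by 3.51 ± 14.7 percentage points (exact permutation test, adjusted p = 0.441).

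Single genes were compared in the UMIs summed per plate and class, paired by plate, with edgeR. Of 4015 genes tested, 0 passed an adjusted p of 0.05 (0.0%), and 144 had an unadjusted p under 0.05, of which 104 were higher in large cells (2.59%) and 40 lower (0.996%). DESeq2 called 221 genes higher (5.5%) and 48 lower (1.2%) on the same sums; in 212 of these 269 genes, 6 or more plates were at 0 in one class, which held for 17.0% of the genes tested. On simulated sums of this design 2923 genes passed the filter on low counts, fewer than the 4015 of the data, so the simulation is not an exact match. Among those edgeR recovered 1 of 63 genes changed 2-fold and 13 of 78 changed 4-fold. The genes below are therefore given as values and not as calls. Some were called in other settings. Without the filter edgeR called Rnf157 higher in large cells, and Ms4a4c, Cd74, Plac8, Tmsb4x, H2-Ab1, Isg20, Cst3 and Malat1 lower (adjusted p = 1.38e-06 to 0.0343). Of these DESeq2 called Rnf157, Ms4a4c, Plac8, Cd74 and Isg20 (adjusted p = 1.38e-10 to 0.0360), and not Tmsb4x, H2-Ab1, Cst3 and Malat1. Over the 4015 genes tested with the filter, the log2 fold change was above 0 for 64.9% and below 0 for 35.1%, with a median of 0.31. Scaled per spike-in UMI in place of per library, the fold changes moved up by a median of 0.43 and the median was 0.74. In such sums fewer cells with a transcript and less of it per cell cannot be told apart.

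The genes with the smallest p among those higher in large cells were Rnf157, Nr4a2, Rela, Prpf8, Cd9 and Grk2. Rnf157, a ubiquitin ligase, had 44.8 to 325 CPM in large cells (median 186) and 0 to 117 CPM in small cells (median 0), with UMIs in 24 large and 4 small cells and 0 in the small cells of 10 plates. It was higher in large cells in 12 of 12 plates, and had an adjusted p of 0.212 in edgeR, the lowest of all genes. Prpf8, a core protein of the spliceosome, had 194 ± 114 CPM in large and 35.1 ± 55.1 CPM in small cells and UMIs in 31 large and 8 small cells. Rela, the p65 subunit of canonical NF-κB, had 93.6 ± 52.7 CPM in large and 21.6 ± 39.7 CPM in small cells, with UMIs in 21 large and 7 small cells.

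Nr4a2, an orphan nuclear receptor of the immediate-early class, was found in 21 large and 3 small cells. Grk2, the kinase that desensitises chemokine receptors, averaged 141 ± 44.3 CPM in large and 37.6 ± 73.8 CPM in small cells and was found in 33 large and 12 small cells. Cd9, a tetraspanin of the plasma membrane, was the only one of the 6 with UMIs in every sum. It had 523 to 1474 CPM in large cells (median 882) and 231 to 763 CPM in small cells (median 518), and was higher in 11 of 12 plates, at 0.90 ± 0.25 on the log2 scale in edgeR (SE, adjusted p = 1.0).

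The genes with the smallest p among those lower in large cells were Anxa2, Ms4a4c, Irf7, Plac8, Ccl6 and Cd74. Plac8, a small cysteine-rich protein of myeloid cells, had 0.8 to 1341 CPM in large cells (median 633) and 722 to 2650 CPM in small cells (median 1440), and was lower in large cells in 12 of 12 plates (edgeR log2 fold change -1.53 ± 0.51, SE, adjusted p = 1.0), and in 9 of 12 per spike-in UMI. UMIs of Plac8 were found in 42 large and 61 small cells. Ms4a4c, a membrane protein of the MS4A family, had 273 ± 422 CPM in large and 835 ± 453 CPM in small cells, with lower values in 11 of 12 plates and UMIs in 22 large and 37 small cells. Ccl6, a chemokine of myeloid cells, was found in 4 large and 10 small cells. Anxa2, a membrane-binding annexin, had 1534 ± 356 CPM in large and 2172 ± 760 CPM in small cells; its log2 fold change was -0.46 per library and -0.03 per spike-in UMI. Irf7, the interferon-induced factor that amplifies type I interferon, had 156 to 2022 CPM in large cells (median 859) and 192 to 2910 CPM in small cells (median 1220), and was lower in 9 of 12 plates (edgeR log2 fold change -0.84 ± 0.27, SE, adjusted p = 1.0).

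Plac8, Ms4a4c and Ccl6 are also carried by monocytes. A list of 14 monocyte genes was chosen after these values were seen and holds Plac8 and Ms4a4c, so its sum is no separate evidence of their direction. The list summed to 1460 ± 984 CPM in large and 3228 ± 1332 CPM in small cells, lower in 12 of 12 plates and in 10 of 12 per spike-in UMI. Of these sums Plac8 and Ms4a4c averaged 662 and 273 CPM in large and 1546 and 835 CPM in small cells. In the list, 7 of 13 genes with UMIs had a higher mean level in large cells (53.8%), against 58.1% of all genes. Its members did not all run one way: Ccr2, the monocyte chemokine receptor, was found in 15 large and 28 small cells, while Ly6c2 was found in 22 large and 9 small cells and was higher in large cells in 8 plates. The part of monocytes in these genes was not tested.

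**Figure D3:**
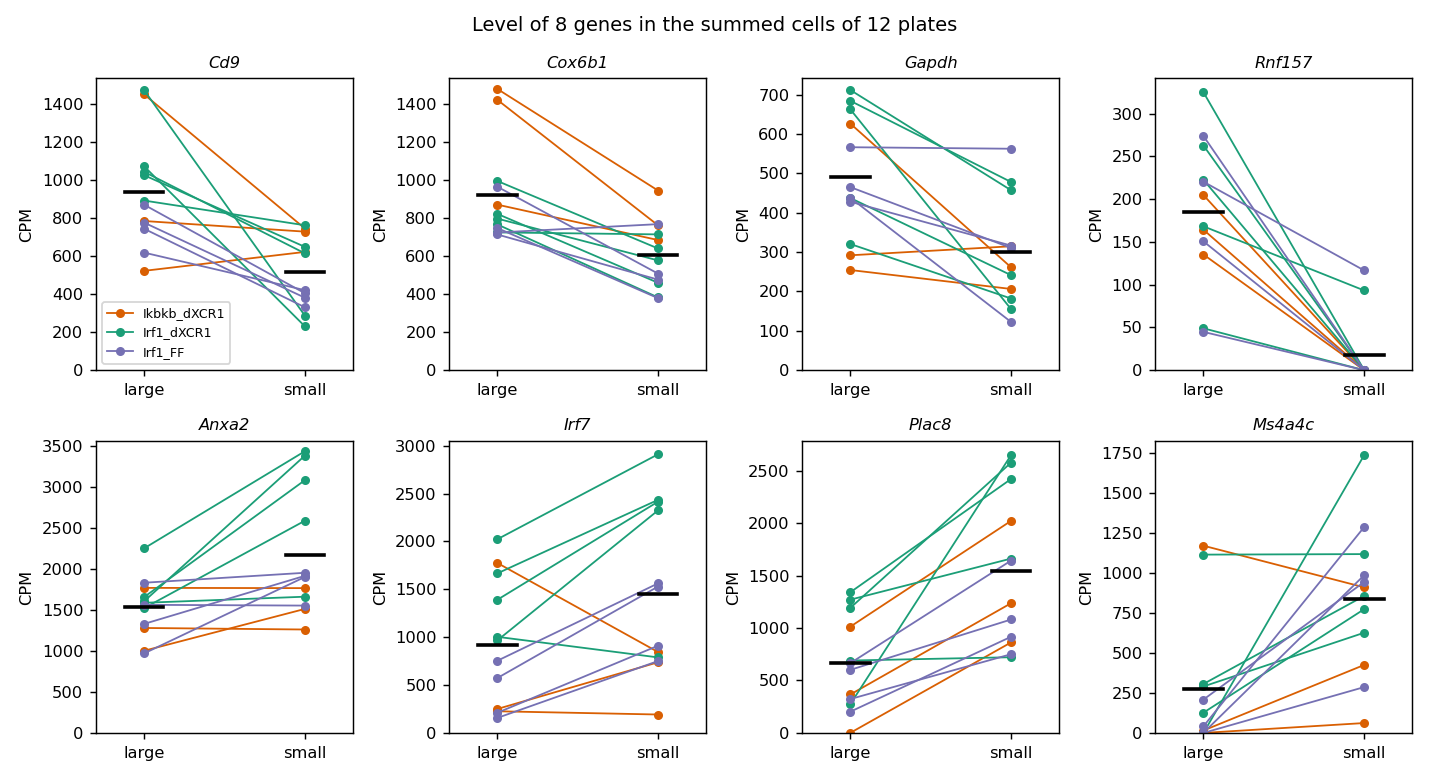
Level (CPM) of 8 genes in the summed large cells (left) and small cells (right) of 12 plates, 1 line per plate coloured by genotype, with the mean as a bar. Rnf157 lies above 0 in all 12 plates in large cells and at 0 in 10 in small cells, and Plac8 is lower in large cells in all 12.

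No cell-cycle gene passed in edgeR, and the sums of these genes were higher in large cells in some plates only. Of 38 genes of the S phase and DNA replication, 34 had a higher mean level in large cells, and of 35 genes of the G2 phase and mitosis 33 did, against 58.1% of all 16556 genes with UMIs. Summed, the S phase list reached 1003 to 9205 CPM in large cells (median 3452) and 225 to 8657 CPM in small cells (median 1229), higher in large cells in 7 of 12 plates. The G2 and mitosis list reached 3080 to 14042 CPM in large cells (median 7184) and 2713 to 7852 CPM in small cells (median 4040), higher in 8 of 12 plates. The ranges of both lists overlap widely, and the largest gap came from the Ikbkb_dXCR1 plate in which 3 of 6 large cells held mitosis genes.

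Among the members, Mcm3, a subunit of the replicative helicase, had UMIs in 24 large and 8 small cells, and Cdk1, the kinase that starts mitosis, in 18 large and 5 small cells; both were chosen after their values were seen. The 2 most abundant members of each list differed less. Pcna, the sliding clamp of DNA polymerase, had 265 ± 159 CPM in large and 216 ± 180 CPM in small cells, and Slbp, the histone mRNA binding protein, had 284 ± 192 CPM in large and 189 ± 117 CPM in small cells. Tubb5, a beta tubulin, had 748 ± 322 CPM in large and 447 ± 311 CPM in small cells and was higher in 11 of 12 plates, whereas H2afz, a histone variant made throughout the cycle, had 2594 ± 617 CPM in large and 2831 ± 612 CPM in small cells.

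Of the nuclear genes of the respiratory chain none passed in edgeR, and their sum was higher in large cells in most plates. The 40 genes summed to 16112 to 29417 CPM in large cells (median 22445) and to 13842 to 28848 CPM in small cells (median 18634), and the ranges overlap. The sum was higher in large cells in 12 of 12 plates in these CPM, and in 10 of 12 with UMIs scaled to the plain library size, where Ikbkb_dXCR1 replicate 2 and Irf1_FF replicate 2 turned, and in 10 of 12 per spike-in UMI, where Ikbkb_dXCR1 replicates 2 and 3 turned. Of 39 genes tested, 32 had a log2 fold change above 0, with a median of 0.39, against 64.9% and 0.31 over all genes. With the cells that held mitosis genes left out, 25 of 39 were above 0 with a median of 0.21, against 58.5% and 0.18 over all genes. With the cells that held maturation genes left out, 33 of 39 were above 0 with a median of 0.57, against 68.2% and 0.41. An unadjusted p under 0.05 was reached by 7 of the 39, all of them higher, against 2.59% of all genes tested. Over the 40 genes with UMIs, 29 had a higher mean level in large cells (72.5%), against 58.1% of all genes. Cox6b1, a subunit of cytochrome c oxidase chosen after its values were seen, had 714 to 1480 CPM in large cells (median 810) and 379 to 945 CPM in small cells (median 609) and was higher in 11 of 12 plates (edgeR log2 fold change 0.61 ± 0.18, SE, adjusted p = 1.0). Of the most abundant members, Sdhb of complex II was higher in 9 of 12 plates, with 1212 ± 443 CPM in large and 1034 ± 461 CPM in small cells, and Cox4i1 in 7, with 1580 ± 278 CPM in large and 1502 ± 383 CPM in small cells.

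Transcripts made inside mitochondria did not share that direction in the UMIs summed per library. Of 7 tested, 6 had a fold change below 0, with a median of -0.27 per library and 0.17 per spike-in UMI. With cells weighted equally in limma, 5 of 7 were above 0 and the median was 0.25, against 0.39 over all genes. With cells under 500 genes left out, 3 of 7 were above 0 and the median was -0.02. The most abundant, mt-Co1 and mt-Cytb, averaged 3109 ± 750 and 2955 ± 917 CPM in large cells and 3759 ± 1037 and 3663 ± 1145 CPM in small cells.

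Lists tied to growth lay on both sides of the median of all genes. Glycolysis and hypoxia genes had 13 of 14 fold changes above 0 (median 0.60), growth and amino acid transport genes 12 of 14 (median 0.56), apoptosis genes 11 of 14 (median 0.49), proteasome genes 18 of 22 (median 0.31), translation factors 16 of 23 (median 0.24), ribosome biogenesis genes 12 of 21 (median 0.49) and cytosolic ribosomal proteins 51 of 75 (median 0.08). Counted over every listed gene with UMIs, the mean level was higher in large cells for 16 of 20 apoptosis genes, 16 of 22 proteasome genes, 50 of 78 ribosomal proteins, 19 of 30 ribosome biogenesis genes, 12 of 19 glycolysis genes, 14 of 23 growth genes and 13 of 23 translation factors, against 58.1% of all genes. The proteasome sum was higher in large cells in 10 of 12 plates and the apoptosis sum in 9. Gapdh, a glycolytic enzyme chosen after its values were seen, had 491 ± 158 CPM in large and 301 ± 137 CPM in small cells and was higher in 11 of 12 plates. The 2 most abundant members of that list did not share this: Pkm had 1188 ± 382 CPM in large and 1140 ± 448 CPM in small cells, and Ldha had 1031 ± 299 CPM in large and 1143 ± 431 CPM in small cells. The glycolysis median was -0.30 in Ikbkb_dXCR1 and 0.96 in Irf1 plates, while that of all genes was -0.25 in Ikbkb_dXCR1 and 0.57 in Irf1 plates.

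**Figure D4:**
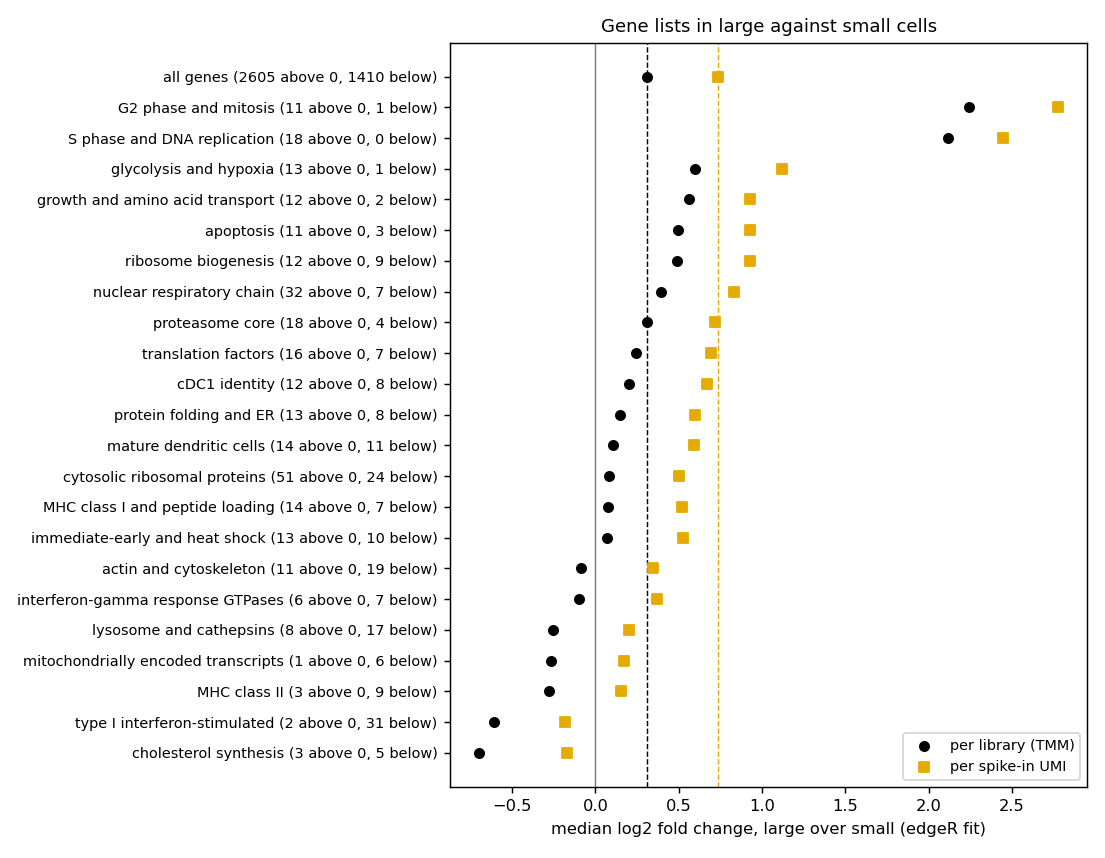
Median log2 fold change (large over small) of 22 gene lists and all genes in the edgeR fit, per library (circles) and per spike-in UMI (squares), with dashed lines at the medians of all genes. Cell-cycle lists, of which 18 of 38 and 12 of 35 genes passed the filter on low counts, lie to the right at 2.12 and 2.24, and type I interferon-stimulated genes lie at -0.61 per library and -0.18 per spike-in UMI, left of the line on both scales.

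With the filter on low counts no gene induced by type I interferon passed in edgeR, and most had a lower mean level in large cells. Of 38 with UMIs, 3 had a higher mean level in large cells, against 58.1% of all genes, and of the 33 tested 31 had a log2 fold change below 0, with a median of -0.61. Unadjusted p was under 0.05 for 5 of them, all lower, against 0.996% of all genes. The list summed to 5450 to 22665 CPM in large cells (median 14942) and to 9086 to 29926 CPM in small cells (median 16311), and was lower in large cells in 9 of 12 plates, namely 1 of 3 Ikbkb_dXCR1 and 8 of 9 Irf1 plates. Per spike-in UMI the median was -0.18 against 0.74 for all genes, and 12 of 33 genes were above 0. On that scale 21 of 38 genes with UMIs had a higher mean in large cells, against 70.7% of all genes, and the sum was higher in 6 and lower in 6 plates. With cells weighted equally in limma, 13 of 33 were above 0 and the median was -0.06 against 0.39 for all genes. With the cells that held maturation genes left out, 10 of 32 were above 0 and the median was -0.26.

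The 2 most abundant members were Ly6e, a membrane protein that restricts viruses, and Ifi205, a DNA sensor of the AIM2 family. Ly6e had 1976 ± 776 CPM in large and 2193 ± 658 CPM in small cells, and Ifi205 had 531 to 2871 CPM in large cells (median 1748) and 1026 to 5276 CPM in small cells (median 2095), lower in 10 of 12 plates and in 6 of 12 per spike-in UMI. Ifitm3, which blocks virus entry, had 1442 ± 860 CPM in large and 2168 ± 1150 CPM in small cells (edgeR log2 fold change -0.64 ± 0.21, SE, adjusted p = 1.0). Isg20, a nuclease, had 269 ± 325 CPM in large and 766 ± 479 CPM in small cells. It passed in edgeR without the filter on low counts (adjusted p = 0.00392) and in DESeq2 (adjusted p = 0.0360). Oasl2, of the oligoadenylate synthase family, had 132 ± 125 CPM in large and 379 ± 153 CPM in small cells. Ifitm3, Isg20 and Oasl2 were chosen after their values were seen.

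The motif GAAANNGAAA, the core of the interferon-stimulated response element that IRF proteins bind, was searched on both strands from 250 bases before to 50 bases after the gene start (RefSeq, GRCm38.p6). It was found in 19 of the 30 promoters that the table held for this list (63.3%), in 182 of 3984 promoters of the tested genes (4.57%) and in 1131 of 32851 promoters in all (3.44%). For the S phase list it was found in 0 of 36, and the E2F motif TTTNGCGC in 9 of 36 (25.0%), against 2.74% of the tested genes. For the G2 and mitosis list the E2F motif was found in 1 of 28 (3.57%), that of Cdk1. For the nuclear respiratory chain list it was found in 4 of 34 (11.8%). A match is a description of the letters and not a bound site. Below are the 250 bases before the start of Ifi205 (chr1:174031756-174032005, minus strand). They are followed by the 30 bases of Ifitm3 that hold both of its matches (chr7:141010716-141010745, minus strand) and the 250 bases before the start of Cdk1 (chr10:69352913-69353162, minus strand). Each gene is a member with a match, of the interferon list or, for Cdk1, of the G2 and mitosis list. Capitals mark the motif. The Irf7 window held 0 matches.
Ifi205: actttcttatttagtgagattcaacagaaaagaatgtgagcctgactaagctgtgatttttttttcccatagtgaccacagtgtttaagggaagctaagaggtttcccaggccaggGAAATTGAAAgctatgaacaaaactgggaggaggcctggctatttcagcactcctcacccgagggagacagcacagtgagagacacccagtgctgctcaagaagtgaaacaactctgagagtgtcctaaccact
Ifitm3: cagGAAAAGGAAActtctgaGAAACCGAAA
Cdk1: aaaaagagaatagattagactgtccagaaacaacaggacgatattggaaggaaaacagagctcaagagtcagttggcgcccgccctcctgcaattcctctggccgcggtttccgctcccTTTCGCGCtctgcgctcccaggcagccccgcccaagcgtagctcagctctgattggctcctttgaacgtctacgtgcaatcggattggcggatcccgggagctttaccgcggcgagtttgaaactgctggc

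Genes of MHC class II also had fold changes below 0 per library, in 9 of 12 genes tested with a median of -0.28. Their counts stood near the limit of the assay. A UMI of 5 bases has 1024 different tags, so no gene can exceed that count in a cell, and this number was the highest count of the table. Cd74, the invariant chain, had a median of 891 UMIs per large and 822.5 per small cell, and 50 large and 40 small cells held 900 or more. H2-Aa had 900 or more UMIs in 40 large and 16 small cells, and H2-Ab1, chosen after its values were seen, in 45 large and 37 small cells. Per library Cd74 had 4798 ± 1527 CPM in large and 6651 ± 2272 CPM in small cells and a log2 fold change of -0.46, which was -0.24 with counts corrected for tags used more than once and -0.02 per spike-in UMI. With that correction H2-Ab1 had a log2 fold change of -0.25, and the list had 5 of 12 genes above 0 and a median of -0.04. The interferon list had 2 of 33 genes above 0 and a median of -0.64 with it. Of the interferon list Irf7, Ifitm3 and Ifi205 had medians of 32 and 56.5, 83.5 and 177, and 120.5 and 190.5 UMIs per large and small cell, and 0 cells with 900 or more.

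The same limit bears on other very abundant transcripts. Tmsb4x (thymosin, which binds actin), Cst3 (cystatin C, a cathepsin inhibitor highly expressed in cDC1) and the nuclear RNA Malat1 had 900 or more UMIs in 62, 58 and 51 large and in 44, 40 and 23 small cells. Their log2 fold changes were -0.39, -0.34 and -0.33 per library and -0.15, -0.05 and -0.03 after the correction. Malat1 was chosen after its values were seen. Actb had 4025 ± 1439 CPM in large and 5085 ± 1976 CPM in small cells, and -0.32 per library and -0.17 after the correction. Over the lists, 11 of 30 actin and cytoskeleton genes were above 0 (median -0.09) and 8 of 25 lysosome and cathepsin genes (median -0.26), and per spike-in UMI both medians were above 0, at 0.35 and 0.20. Npc2, a lysosomal cholesterol carrier, had 2173 ± 886 CPM in large and 2912 ± 905 CPM in small cells.

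**Figure D5:**
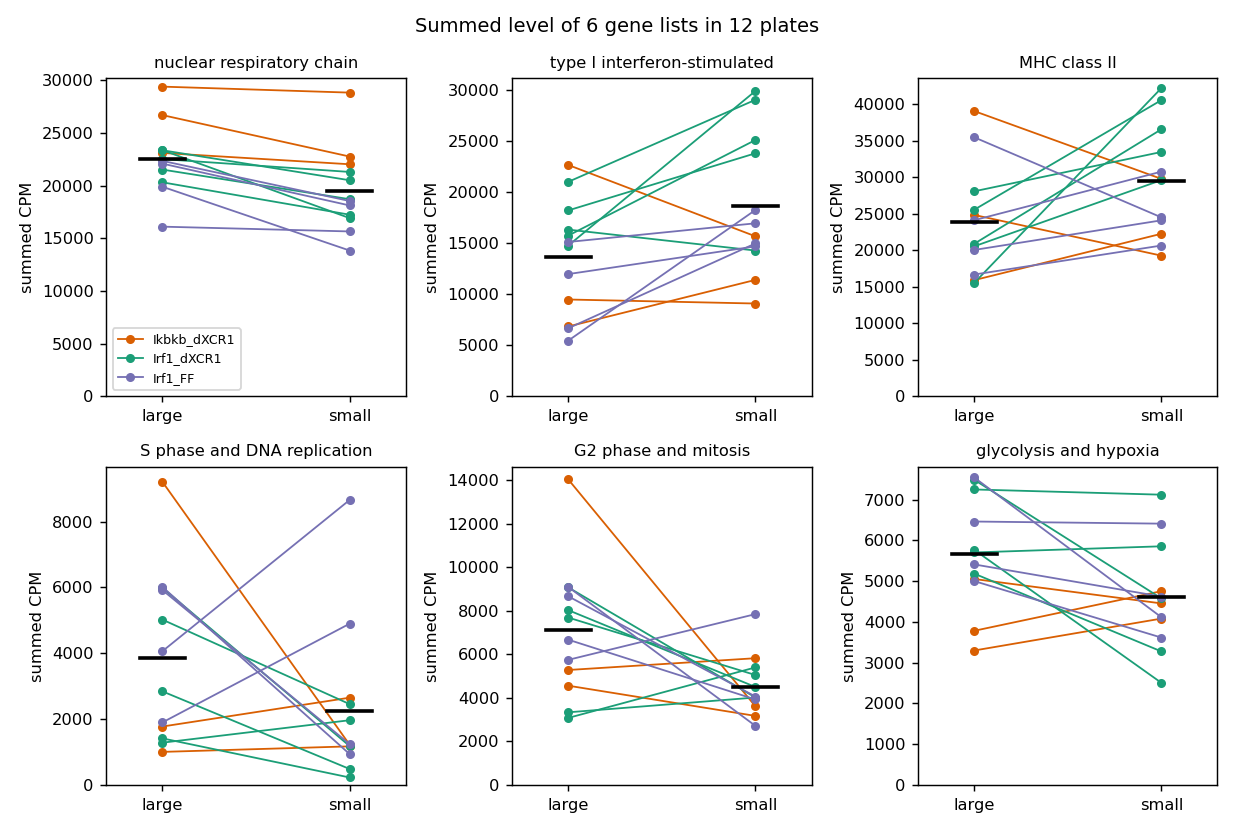
Summed level (CPM) of 6 gene lists in large cells (left) and small cells (right) of 12 plates, 1 line per plate coloured by genotype, with the mean as a bar. The respiratory chain is higher in large cells in all 12 plates on this scale, and in 10 with plain library sizes or per spike-in UMI, while the type I interferon-stimulated and MHC class II lists are lower in large cells in 9 plates each.

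Lists that describe dendritic cell identity and maturation had members on both sides of 0. Of 20 cDC1 identity genes tested, 12 were above 0 with a median of 0.20, against 64.9% and 0.31 over all genes. Among those with UMIs in all 24 sums 1 of 8 was above 0, against 56.9% of all such genes, and the sum of the list was higher in large cells in 6 of 12 plates, at 11715 ± 3388 CPM in large and 12479 ± 2465 CPM in small cells. The 2 most abundant, Id2, a factor needed for the cDC1 lineage, and Ppt1, a lysosomal thioesterase, had 2362 ± 680 and 1648 ± 778 CPM in large and 2824 ± 713 and 1905 ± 454 CPM in small cells. Of 25 genes of mature dendritic cells, 14 were above 0 with a median of 0.10, and 0 of the 3 with UMIs in all sums were, while the sum was again higher in 6 of 12 plates. Ccr7, the receptor that leads mature dendritic cells to lymph nodes, was found in 37 large and 34 small cells, and Cd83 in 77 large and 84 small cells. MHC class I and peptide loading genes were above 0 in 14 of 21 (median 0.08), interferon-gamma response GTPases in 6 of 13 (median -0.10), protein folding genes in 13 of 21 (median 0.15), immediate-early and heat-shock genes in 13 of 23 (median 0.07) and cholesterol synthesis genes in 3 of 8 (median -0.70).

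Neither of the genes targeted in the mice passed in edgeR. Irf1 had 395 ± 318 CPM in large and 303 ± 248 CPM in small cells and was higher in large cells in 6 of 12 plates. Ikbkb had 323 ± 191 CPM in large and 414 ± 304 CPM in small cells and was higher in 3 and lower in 9 plates. Per spike-in UMI Ikbkb was higher in 6 and lower in 6 plates. UMIs of Irf1 were present in Irf1_dXCR1 plates, at 38.2 to 452 CPM in large cells, against 52.8 to 984 CPM in the large cells of Irf1_FF plates. Since the deleted exons are not named, these 5′ tags do not check the labels. Both genes were chosen after their values were seen.

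In CPM, markers of other immune cells, neutrophils apart, had lower mean sums in large cells, and fibroblast genes had higher ones. Macrophage genes summed to 263 to 2004 CPM in large and 476 to 4301 CPM in small cells and were higher in large cells in 6 of 12 plates, and cDC2 genes to 78.8 to 1320 CPM in large and 391 to 2703 CPM in small cells, higher in 5 of 12. Kmo, a kynurenine enzyme on the cDC2 list, was lower in large cells in 12 of 12 plates, with 141 ± 142 CPM in large and 498 ± 253 CPM in small cells (edgeR adjusted p = 1.0), and Tmem176b had 169 ± 208 CPM in large and 228 ± 216 CPM in small cells. Plasmacytoid dendritic cell genes, which share Irf7 and Bst2 with the interferon list, summed to 1496 ± 948 CPM in large and 2165 ± 1125 CPM in small cells and were lower in 10 of 12 plates. Of these sums Irf7 and Bst2 averaged 916 and 433 CPM in large and 1450 and 528 CPM in small cells. In that list 5 of 9 genes with UMIs had a higher mean level in large cells, against 58.1% of all genes. Per spike-in UMI its sum averaged 0.0370 in large and 0.0350 in small cells, higher in 5 and lower in 7 plates. T cell genes summed to 103 ± 256 CPM in large and 412 ± 633 CPM in small cells, higher in 5 and lower in 5 plates, NK cell genes to 30.8 ± 67.7 CPM in large and 317 ± 900 CPM in small cells, lower in 6 and higher in 2 plates, and B cell genes, of which 3 had UMIs, to 202 ± 320 CPM in large and 381 ± 239 CPM in small cells, lower in 10 of 12 plates. Neutrophil genes summed to 4.83 ± 16.2 CPM in large and 4.50 ± 15.3 CPM in small cells, and 1 of 9 melanoma genes, Mitf, had UMIs in 1 large and 0 small cells. Fibroblast and endothelial genes, 5 of which the choice of cells had used, summed to 529 ± 792 CPM in large and 109 ± 145 CPM in small cells, higher in large cells in 9 and lower in 2 plates. The part of these cells in the results was not tested.

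Whether the size difference of single genes itself differed between genotypes was tested as an interaction in edgeR. Of 4184 genes tested between Irf1_dXCR1 and Irf1_FF plates, 0 passed (0.0%) and 89 had an unadjusted p under 0.05. Between Ikbkb_dXCR1 and Irf1_FF plates 0 of 4044 passed (0.0%), with 77 under 0.05, and between Ikbkb_dXCR1 and all Irf1 plates 0 of 4015 passed (0.0%), with 151 under 0.05. Leaving out Irf1_FF replicate 1 gave 3 calls between Irf1_dXCR1 and Irf1_FF plates, among them Isg20. Side by side, the interferon list had a median of -0.34 in Ikbkb_dXCR1 and -0.84 in Irf1 plates, and the respiratory chain 0.05 in Ikbkb_dXCR1 and 0.45 in Irf1 plates.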

How the data were processed

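Each plate well took 1 sorted cell and spike-in RNA, and transcripts received 5′ UMIs of 5 bases, per the labels' protocols. The authors deposited UMI counts of 21205 genes per cell; bcl2fastq, STAR 2.5.3a, HTSeq 0.9.1 and GRCm38 are named in the submitters' processing notes. Their deposited cell table holds the fraction of mitochondrial and of spike-in UMIs, and each staining as a score, the arcsinh of the cytometer intensity without a cofactor. The sources used here do not give the filters applied before deposit. Here, plate medians were compared with exact sign-flip permutation tests (scipy 1.17.1, Python 3.11.15), and UMIs summed per plate and class with edgeR 4.0.16 (R 4.3.3), TMM scaling, filterByExpr, plate as a block and Benjamini-Hochberg adjustment (threshold 0.05). The block rests on the labels: both classes of a plate come from 1 tumour. DESeq2 1.42.0 and limma 3.58.1 (pseudocount 1 CPM) were alternatives, and the script was tested on simulated sums. Genes named in the text come from the 6 with the smallest p per direction, as none passed, and from the 2 most abundant of each of 31 lists. Others are said to be chosen after their values were seen. The cells, members and lists were chosen with earlier results of these data known. Depth per sum is 583404 UMIs or more; p-values measure the spread between tumours of 1 mouse each. A transcript count per cell is limited by the tags, and a collision-corrected count was added after seeing the data. FF in a comparison with Ikbkb_dXCR1 means the Irf1_FF plates.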

Additional observations from a re-analysis of the deposited data

Results flagged for a closer look

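The difference between large and small cells went opposite ways in Ikbkb_dXCR1 and Irf1 plates. Against the Irf1_FF plates it was -1.17 in log2 UMIs per cell and -604.8 in genes per cell, and every plate of each genotype lay on its own side of 0; the exact permutation tests gave an adjusted p of 0.214. Against all Irf1 plates it was -1.33 in log2 UMIs, -783.9 in genes and -406.2 in genes at 20000 UMIs per cell. That comparison was added after the split in UMIs had been seen. Its plates were grouped by that split, so these values are given with no test and are no independent evidence of it. These genotypes were sorted in different experiments. Mouse age differed too, at 8 weeks in Ikbkb_dXCR1 replicates 1 and 2 and 6 weeks in all Irf1 plates. The part of experiment or age in the difference cannot be told apart.

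In 10 of 90 groups of 4 or 5 plates 1 plate stood far from the others, where chance gives about 1 in 20. In Irf1_FF plates, the large cells of replicate 2 had a CD11b median of -4.05 arcsinh units and those of replicate 3 a CD11c median of 9.17, while the small cells of replicate 4 had 16.09 log2 UMIs, those of replicate 1 a side scatter of 12.31 and those of replicate 2 a CD11b of 0.023. In Irf1_dXCR1 plates, the large cells of replicate 1 had a CD11b of -3.47 and those of replicate 5 an MHC class II of 10.35, while the small cells of replicate 1 had a lineage staining of -2.09, which put its large-minus-small difference at 6.90, and those of replicate 5 a CD11b of -3.84. The CD11b and lineage values are stainings close to an intensity of 0, where the arcsinh scale is steep.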

How the results depend on the processing

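The block for the plate follows from the shared tumour; without the replicate block edgeR called 0 genes, as with it, and 42 genes had an unadjusted p under 0.05. DESeq2 called 269 genes and edgeR without a filter 9, and without Irf1_FF replicate 1 the comparison of Irf1_dXCR1 with Irf1_FF plates called 3; the cause was not tested. Other settings kept 0 calls.

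Of the stainings, 3 were called. With the split at the median, in Irf1 plates and without cells at the top of the side scatter scale 5 were called. The same number was called without Ikbkb_dXCR1 replicate 3 or Irf1_dXCR1 replicate 1. XCR1 and CD11c were among the calls in each of these settings. Without the CD64 limit 5 were also called, but XCR1 was not among them (exact permutation test, adjusted p = 0.134), so LIN, CD11b or MHC class II passed in that setting. The cause was not tested. From plate means, large cells had more genes (400.2, and 282.0 after thinning) and more UMIs per spike-in UMI (0.44 log2), with a log2 spike-in share of -0.42, all past the threshold. In Irf1 plates, set apart after the values were seen, these were 405.6, 290.1, 0.53 and -0.51, with log2 UMIs of 0.53. Genes after thinning passed at 201.7 without cells at the top of side scatter. With a plate left out, log2 UMIs ranged from 0.12 to 0.36, genes from 161.0 to 296.3 and thinned genes from 154.6 to 238.3, the highest value of each being past the threshold without Ikbkb_dXCR1 replicate 3. Between Ikbkb_dXCR1 and Irf1 plates, grouped after the values were seen, the log2 UMI difference was -1.10 with the split at the median. It was -1.65 to -0.89 with a plate left out, and these values are given with no test.

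The mitochondrial share turned to -0.082 without the CD64 limit, -0.31 without maturation cells, -0.32 from plate means, -0.0094 in Irf1 plates, and ranged from -0.055 to 0.12 without a plate. CD11b turned to -0.086 with the split at the median, -0.50 from plate means, -0.36 in Irf1 plates and ranged from -0.29 to 1.39 without a plate. Lineage staining turned to -0.29 without cells that held mitosis genes and ranged from -0.33 to 0.52 without a plate. MHC class II protein turned to 0.17 without cells that held mitosis genes, 0.045 from plate means, 0.11 in Irf1 plates and 0.11 without cells at the top of side scatter. It ranged from -0.12 to 0.13 without a plate. The side scatter difference between Ikbkb_dXCR1 and Irf1 plates ranged from -0.25 to 0.14, and against Irf1_FF plates from -0.15 to 0.24, without a plate.

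Log2 fold changes of named genes, none called in edgeR with the filter on low counts, changed sign as follows. Per spike-in UMI H2afz was at 0.31, mt-Co1 0.17, mt-Cytb 0.12, Ldha 0.33, Id2 0.16, Ppt1 0.12, Cd83 0.24, H2-Aa 0.10, Ly6e 0.20, Tmsb4x 0.048, Actb 0.11, Cst3 0.10, H2-Ab1 0.0084 and Malat1 0.11. In limma H2afz was at 0.47, mt-Cytb 0.25, Ldha 0.40, Id2 0.076, Ppt1 0.33, Ccr7 0.15 and Clec9a 0.27. In Ikbkb_dXCR1 plates Cd74 was at 0.013, Pcna -3.51, H2afz 0.17, mt-Co1 0.074, Pkm -0.50, Id2 0.040, Ppt1 0.0016, Cd83 0.23, Ccr7 1.27, H2-Aa 0.13, Tmsb4x 0.22, Cst3 0.24, Tmem176b 1.83 and Malat1 0.14. In Irf1 plates Slbp was at -0.13, Ldha 0.022, Clec9a 0.11 and Irf1 -0.045. With the split at the median Pcna was at -0.13 and Pkm -0.074, and with narrower classes Irf1 was at -0.017. Without the fibroblast limit Pcna was at -0.043 and Tmem176b 0.35, and without the CD64 limit Tmem176b at 0.083. Without cells under 500 genes Pcna was at -0.35, Pkm -0.027 and Irf1 -0.15. Without cells that held mitosis genes Tmem176b was at 0.24 and Ikbkb 0.033, and without cells that held maturation genes H2afz was at 0.0075. Pkm ranged from -0.066 (without Irf1_dXCR1 replicate 2) to 0.18 with a plate left out. The cause was not tested. Depth limits the sparse genes: edgeR recovered 13 of 78 genes with simulated 4-fold changes among the 2923 that passed the filter in the simulated sums.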
